A study of Mus musculus with 8 samples.

Results

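Zinc, iron and copper are handled in hepatocytes by a compact set of carriers, reductases, storage proteins and sensors, and 47 of the 25239 genes in the deposited table belong to that set. They were chosen by symbol as the ZnT zinc exporters (Slc30a), the ZIP metal importers (Slc39a), the STEAP metalloreductases, the metallothioneins with their regulator Mtf1, the genes of transferrin and hepcidin, ferritin, ferroportin and the iron regulatory proteins, and the copper carriers. The rule uses no measured value. Adult male mouse livers were compared in 2 groups of 4 libraries. Knockout livers are labelled Zfp36l1 fl/fl Alb-Cre+, and control livers are labelled Zf36l1 fl/fl, with WT as their genotype. Both groups therefore carried the loxP-flanked Zfp36l1 gene, and Cre, driven by the albumin promoter and so active in hepatocytes, is named for the knockout livers alone. Nothing in the labels ties a library to a mouse of its own, and the tests thus reflect the scatter among libraries. The libraries held 104842873 to 140582588 counts, and 3 counts correspond to 0.0213 to 0.0286 CPM (read counts scaled to a common library size). The CPM of genes are TMM-normalised.

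ZFP36L1, itself a zinc-binding protein, attaches to AU-rich stretches of mRNAs and speeds their decay. Cells set their free zinc by exporting it or storing it in vesicles through ZnT proteins, importing it through ZIP proteins and binding it to metallothioneins, whose genes are switched on by the zinc sensor MTF1. The liver is also the body's main iron store and the source of hepcidin, a peptide hormone that makes the iron exporter ferroportin disappear from cell surfaces. Iron regulatory proteins bind hairpins called iron-responsive elements and so set the translation of ferritin and the stability of the transferrin receptor mRNA.

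The targeted transcript checked the labels. Zfp36l1 had 76.9, 57.9, 67.2 and 58.3 CPM in knockout libraries 1 to 4, against 263.4, 236.6, 323.5 and 212.1 CPM in control libraries 1 to 4. The groups did not overlap, and the knockout level was 25.1% of the control level (log2 fold change −1.99, SE 0.14, adjusted p = 0.000309). Permuting the labels exactly over the 70 possible assignments gave a two-sided p of 0.0286, the smallest possible. These libraries carried the RNA of hepatocytes, with a summed CPM of 6 hepatocyte markers of 84494 to 94215 in knockout and 72461 to 79838 in control libraries, and 0 of the 6 were called (1 with the replicate block, Ttr, higher, adjusted p = 0.0351). Alb made up most of this sum, with means of 71672 CPM in knockout and 57566 CPM in control livers. Log2 fold changes were 0.32 for Alb and 0.41 for Ttr, and −0.25 to −0.12 for Apoa1, Serpina1a, Cps1 and Cyp2e1. The median of the 6 was −0.14. In bulk liver, fewer cells of a type and less RNA per cell cannot be told apart.

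Of the 47 metal-handling genes, 44 passed the count filter and were tested, and 3 changed. The mitochondrial zinc transporter gene Slc30a9 was higher in the knockout, and the metalloreductase gene Steap2 and the vesicular zinc transporter gene Slc30a3 were lower (edgeR's quasi-likelihood test, adjusted p under 0.05 over all 14861 tested genes). That is 1 of 44 higher and 2 of 44 lower, where 3.51% of all tested genes were higher and 1.88% lower. The same shares are the background for the counts called in the lists of other genes and markers. The median log2 fold change of the 44 was −0.03, against −0.01 over all tested genes, and 38 lay within 0.5 of 0. The 4 knockout and 4 control values did not overlap for 6 of the 44, where 15.1% of all tested genes show this. Unadjusted p was under 0.05 for 11 of the 44, and for 21.5% of all tested genes.

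Libraries with the same replicate number resembled each other, and a fit with that number as a block called 2 more of these genes, both higher. They were the manganese exporter gene Slc30a10 and the hepcidin gene Hamp2. In that fit 3 of 44 were higher and 2 of 44 lower, against 4.39% and 2.52% of all tested genes. With total counts as the only scaling, the median over all genes was −0.12 on the log2 scale, and 22.7% of its calls over all genes were higher, against 65% with the main scaling.

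**Figure D1:**
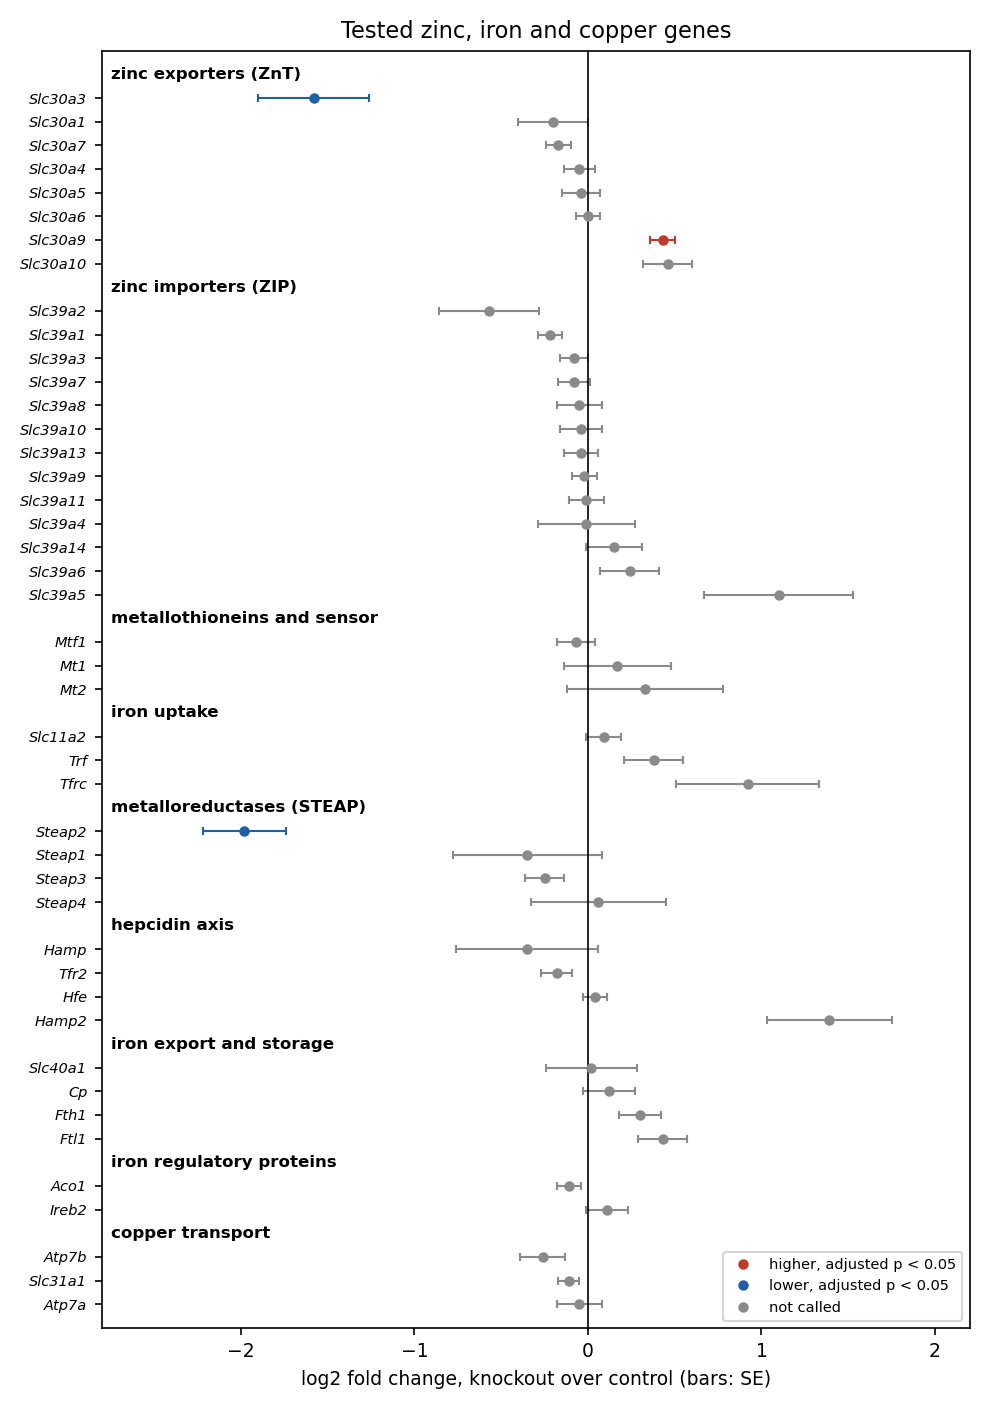
Log2 fold change of knockout over control for the 44 tested genes, grouped by role, with bars showing the standard error. Slc30a9 is marked as higher and Slc30a3 and Steap2 as lower at adjusted p under 0.05, and 38 of the 44 points lie within 0.5 of 0.

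STEAP proteins are membrane reductases that reduce ferric iron and cupric copper, the step that makes these metals ready for transport. Steap2 had 3.04, 2.84, 3.31 and 4.21 CPM in knockout libraries 1 to 4, against 11.3, 10.3, 20.3 and 11.1 CPM in control libraries 1 to 4. Every knockout value lay under every control value, with control 3 far above the other controls. The knockout level was 25.3% of the control level (log2 fold change −1.98, SE 0.24, adjusted p = 0.00418). The call held without each single library (adjusted p up to 0.0201), and the log2 fold change then stayed between −2.11 and −1.70. Of 5 bile duct markers, 1, Sox9, was lower as well, at 5.17 CPM in knockout and 11.7 CPM in control livers (adjusted p = 0.0242). The sum of all 5 was 5.86 to 9.21 CPM in knockout and 11.8 to 15.8 CPM in control libraries. Without Sox9 it was 1.12 to 2.44 CPM in knockout and 1.48 to 1.93 CPM in control libraries, with overlapping ranges.

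The other STEAP genes did not pass. Steap3, the reductase of the transferrin cycle in endosomes, had 48.5, 35.5, 44.4 and 40.6 CPM in knockout libraries 1 to 4, against 55.1, 44, 54.6 and 47.5 CPM in control libraries 1 to 4. The ranges overlapped (log2 fold change −0.25, SE 0.11, adjusted p = 0.223). Steap4, a reductase gene induced by inflammation, had 108.2, 154.3, 84.7 and 222.2 CPM in knockout libraries 1 to 4, against 113.7, 115.2, 86.7 and 230.8 CPM in control libraries 1 to 4. Library 4 was the highest in both groups, and the group means, 142 ± 60.6 CPM in knockout and 137 ± 64.2 CPM in control livers, differed by far less than the spread (SD, n = 4 each). Steap1 had 0.0471, 0.105, 0.0579 and 0.06 CPM in knockout libraries 1 to 4, against 0.129, 0.0474, 0.0859 and 0.082 CPM in control libraries 1 to 4 (log2 fold change −0.35, SE 0.43, adjusted p = 0.677). It was close to the detection limit, with 6 to 12 counts in knockout and 6 to 14 counts in control libraries. Per length, Steap2 averaged 0.702 TPM (read counts divided by gene length and scaled to a common total) in knockout and 2.97 TPM in control livers. The same measure was 104 TPM in both groups for Steap4, and 30.4 TPM in knockout and 38.5 TPM in control livers for Steap3. In both groups Steap2 thus lay under Steap3 and Steap4 per length.

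**Figure D2:**
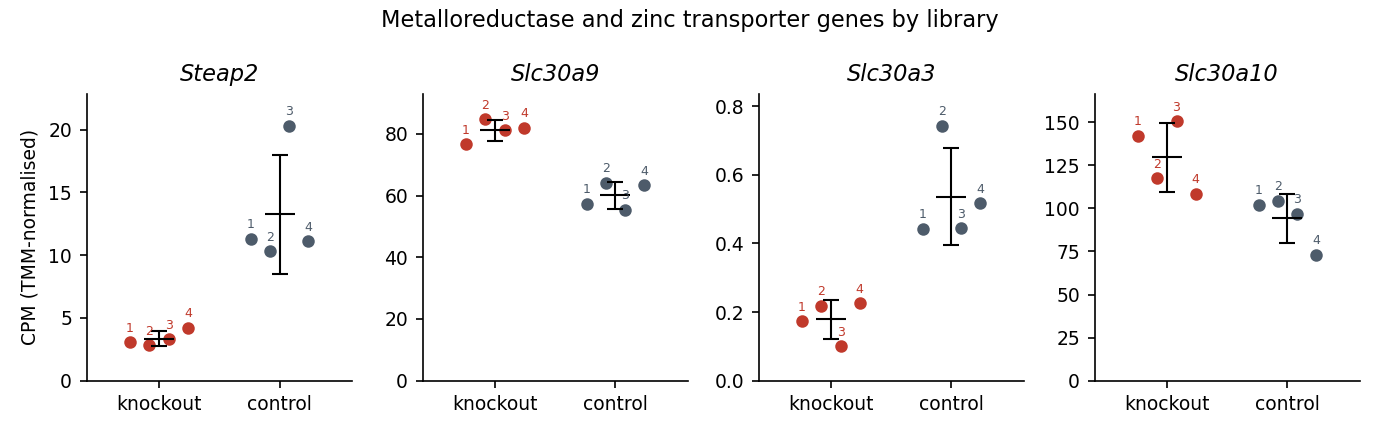
TMM-normalised CPM per library for Steap2, Slc30a9, Slc30a3 and Slc30a10, knockout libraries on the left and control libraries on the right, numbered as in the labels, with mean and SD bars (n = 4). In all 4 panels the groups do not overlap, and the Slc30a3 axis ends under 1 CPM.

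Among the zinc exporters, 8 of 10 genes were tested, with 1 higher and 1 lower. Slc30a9 encodes a carrier that moves zinc out of mitochondria. It had 76.7, 84.7, 81.2 and 82 CPM in knockout libraries 1 to 4, against 57.4, 64.1, 55.4 and 63.4 CPM in control libraries 1 to 4. The groups were clearly apart and tight within themselves, with a level 1.35-fold higher in the knockout (log2 fold change 0.43, SE 0.07, adjusted p = 0.0111). The call held without each single library (adjusted p up to 0.0462).

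Slc30a3 encodes ZnT3, best known for loading zinc into synaptic vesicles of neurons. It had 0.173, 0.218, 0.101 and 0.225 CPM in knockout libraries 1 to 4, against 0.443, 0.743, 0.444 and 0.517 CPM in control libraries 1 to 4. The groups did not overlap, but the values rest on 14 to 30 counts in knockout and 48 to 94 counts in control libraries. The knockout level was 33.4% of the control level (log2 fold change −1.58, SE 0.32, adjusted p = 0.0238), but the call was lost without control 1 or 2 or knockout 1 or 3 (adjusted p up to 0.0718), and without both libraries numbered 4 (adjusted p = 0.0607).

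Slc30a10 encodes a manganese exporter that the liver uses to pass manganese into bile. It had 142.1, 117.6, 150.5 and 108.5 CPM in knockout libraries 1 to 4, against 102.2, 104.4, 97 and 73.1 CPM in control libraries 1 to 4. All knockout values lay above all control values, by a small margin between knockout 4 and control 2. The estimated log2 fold change came to 0.46 (SE 0.14, adjusted p = 0.0856, and 0.0225 when blocked by replicate number). An unstranded count could include reads of the noncoding gene Gm2061, whose exons overlap Slc30a10 on the opposite strand. Gm2061 itself had a mean of 239 counts, against 13485 to 20815 counts of Slc30a10 in knockout and 8914 to 13541 in control libraries.

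The plasma membrane exporter gene Slc30a1, a classical MTF1 target, had 63.5, 32.4, 52.3 and 43.1 CPM in knockout libraries 1 to 4, against 49.8, 45.8, 65.7 and 58.5 CPM in control libraries 1 to 4. These ranges overlapped widely (log2 fold change −0.20, SE 0.20, adjusted p = 0.606). Slc30a5, Slc30a6 and Slc30a7 load zinc into the secretory pathway, and Slc30a4 into vesicles. Their log2 fold changes ran from −0.17 for Slc30a7 to 0 for Slc30a6, with adjusted p from 0.179 to 0.99. Slc30a2 and Slc30a8, which serve mammary gland and pancreatic islet cells, were not tested. Slc30a2 had 2 to 10 counts in knockout and 4 to 16 counts in control libraries, and Slc30a8 had 4 to 13 counts in knockout and 5 to 10 counts in control libraries.

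None of the 13 tested ZIP importer genes out of 14 passed, and their median log2 fold change was −0.04. Slc39a14 imports manganese, zinc and non-transferrin-bound iron into hepatocytes. It had 165.4, 272.8, 202 and 250.2 CPM in knockout libraries 1 to 4, against 180, 216.2, 172.1 and 234.2 CPM in control libraries 1 to 4. In both groups libraries 2 and 4 were the higher ones (log2 fold change 0.15, SE 0.16, adjusted p = 0.633). Slc39a8, a close relative that recovers manganese from bile, had 28.9, 28.5, 29.8 and 27.4 CPM in knockout libraries 1 to 4, against 29.7, 26.9, 38.1 and 23.5 CPM in control libraries 1 to 4. Control 3 was the highest of the 8 libraries and control 4 the lowest (log2 fold change −0.05, SE 0.13, adjusted p = 0.869).

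The zinc importer gene Slc39a4, best known from the intestine, varied more between knockout livers than between control livers. It had 124.2, 54.4, 61.3 and 119.3 CPM in knockout libraries 1 to 4, against 78.1, 84.8, 86.5 and 113.1 CPM in control libraries 1 to 4. Knockouts 1 and 4 were above every control and knockouts 2 and 3 were below every control, with a log2 fold change of −0.01 (SE 0.28, adjusted p = 0.984). Slc39a5, whose protein sits on the blood-facing side of epithelial cells, had 3.81, 6.92, 4.45 and 1.54 CPM in knockout libraries 1 to 4, against 1.43, 1.68, 3.08 and 1.6 CPM in control libraries 1 to 4. Knockouts 1 to 3 were above all controls and knockout 4 was among them (log2 fold change 1.10, SE 0.43, adjusted p = 0.18, or 0.0467 without knockout replicate 4). Slc39a5 was not called without any other single library (adjusted p up to 0.336).

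Slc39a1, a plasma membrane zinc importer gene, was lower in all knockout libraries, at 79 ± 4.28 CPM, against 92 ± 6.64 CPM in control livers (SD, n = 4 each). Its log2 fold change came to −0.22 (SE 0.07, adjusted p = 0.114, or 0.0214 under total counts alone). The importer gene Slc39a10 had 6.83, 7.74, 6.92 and 6.16 CPM in knockout libraries 1 to 4, against 6.9, 8.31, 6.08 and 7.1 CPM in control libraries 1 to 4, with overlapping ranges (log2 fold change −0.04, SE 0.12, adjusted p = 0.88). The remaining tested importers were Slc39a2, Slc39a3, Slc39a6, Slc39a7, Slc39a9, Slc39a11 and Slc39a13, with log2 fold changes from −0.57 for Slc39a2 to 0.24 for Slc39a6 and adjusted p from 0.29 to 0.967. Slc39a2 had 56 to 111 counts in knockout and 76 to 170 in control libraries. Its exons overlap Mettl17 (mean 1305 counts) on the same strand. Exons of Slc39a13 overlap Psmc3 (mean 13715 counts) on the opposite strand. The part of such reads in the 2 genes was not tested. Slc39a12 had 0 to 16 counts in knockout and 0 to 8 counts in control libraries and was not tested.

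The metallothionein genes had few counts in every library, and since the handling of reads that match several places is not given, whether this reflects their level in the livers was not tested. Mt1 had 1.65, 3.07, 1.32 and 2.42 CPM in knockout libraries 1 to 4, against 1.87, 1.29, 1.59 and 2.74 CPM in control libraries 1 to 4. Mt2 had 0.314, 1.14, 0.362 and 0.653 CPM in knockout libraries 1 to 4, against 0.554, 0.371, 0.286 and 0.747 CPM in control libraries 1 to 4. Knockout 2 held the highest value of both genes, and the groups overlapped throughout. The log2 fold changes were 0.17 for Mt1 (SE 0.31, adjusted p = 0.783) and 0.33 for Mt2 (SE 0.45, adjusted p = 0.713), and without knockout replicate 2 they were −0.06 for Mt1 and −0.14 for Mt2. With limma voom they were −0.13 for Mt1 and −0.24 for Mt2. The coding sequences of the pair are 79.6% identical and the whole transcripts 60.0%, and whether any reads were split between them was not tested. Per length Mt1 averaged 8.89 ± 3.21 TPM in knockout and 8.33 ± 2.51 TPM in control livers (SD, n = 4 each). Mtf1, which encodes the zinc-sensing transcription factor, had 21.9, 24.4, 21.9 and 21 CPM in knockout libraries 1 to 4, against 21.7, 29.1, 20.2 and 22.8 CPM in control libraries 1 to 4. Control 2 was the highest library (log2 fold change −0.07, SE 0.11, adjusted p = 0.753).

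**Figure D3:**
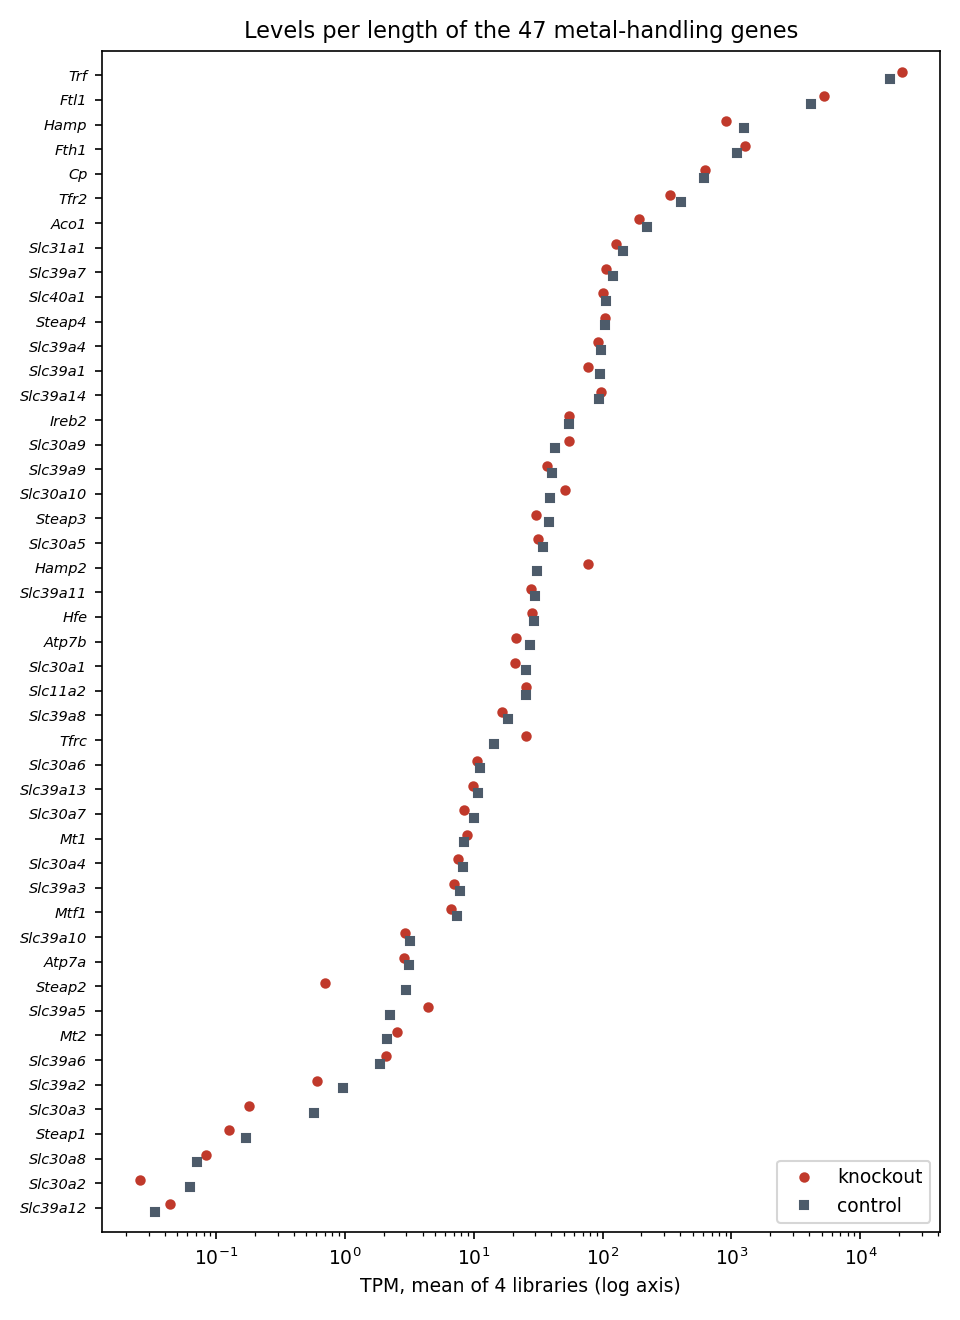
Mean TPM of each of the 47 genes in knockout and control livers on a log axis, ordered by the control mean. Trf leads in both groups, at 20924 TPM in knockout and 17047 TPM in control livers. TPM are not TMM-normalised, so the distance between the 2 groups is not that of the fit.

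Levels per length spanned from the plasma iron carrier to transcripts at the limit of detection. TPM are not TMM-normalised, so they serve to order genes within a group, and differences between groups are read from the fit. Trf, which encodes transferrin, averaged 20924 ± 5101 TPM in knockout and 17047 ± 2249 TPM in control livers (SD, n = 4 each). Ftl1 followed with 5267 ± 530 TPM in knockout and 4155 ± 652 TPM in control livers. Fth1 averaged 1271 ± 203 TPM in knockout and 1099 ± 106 TPM in control livers, and Hamp 913 ± 569 TPM in knockout and 1249 ± 365 TPM in control livers, so the order of this pair lies within its spread. Cp came next with 620 ± 145 TPM in knockout and 607 ± 51.2 TPM in control livers, then Tfr2 with 336 ± 21.3 TPM in knockout and 403 ± 35.6 TPM in control livers and Aco1 with 191 ± 11.8 TPM in knockout and 220 ± 17.7 TPM in control livers, and Slc31a1 with 126 ± 2.13 TPM in knockout and 145 ± 11 TPM in control livers. Most zinc carriers lay lower. Slc39a7, which releases zinc from the endoplasmic reticulum, led them in both groups with 107 ± 6.2 TPM in knockout and 120 ± 10.1 TPM in control livers, and its neighbours Slc40a1, Steap4 and Slc39a4 did not differ from it beyond their spread.

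In mice hepcidin is encoded by 2 neighbouring genes. Hamp encodes the peptide that binds ferroportin, and mouse Hamp2 peptide lacks that activity in transgenic mice. Their coding sequences are 92.5% identical, so the authors' counting may have assigned some reads to the wrong copy. Hamp had 318.9, 114.3, 117.2 and 101.8 CPM in knockout libraries 1 to 4, against 185.7, 257.1, 244.6 and 141.6 CPM in control libraries 1 to 4. Knockout 1 was the highest of all 8 libraries and the other 3 knockouts were under every control. The difference did not pass (log2 fold change −0.35, SE 0.41, adjusted p = 0.669), and was −0.90 without knockout replicate 1 (adjusted p = 0.0617). Knockout 1 also had the highest sum of 4 neutrophil markers, 47.1 CPM, against 0.192 to 19.2 CPM in the other knockouts and 0.158 to 7.69 CPM in the controls. The next highest sum, 19.2 CPM, was that of knockout 4, which had the lowest Hamp value of the 8 libraries. Control 4, with the highest control sum, had the lowest control Hamp value. The part of neutrophils in the Hamp values was not tested.

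Hamp2 was higher on average in the knockout, without passing. It had 17.3, 15.5, 17.7 and 8.22 CPM in knockout libraries 1 to 4, against 8.85, 4.48, 6.11 and 2.98 CPM in control libraries 1 to 4. Each knockout library was above the control library of its own number, while knockout 4 was under control 1. The level was 2.62-fold higher in the knockout (log2 fold change 1.39, SE 0.36), with adjusted p = 0.0629, against 0.00222 when blocked by replicate number. Without control 1 it was 0.048 and without knockout 4 it was 0.0394. Leaving out any other single library gave no call, with adjusted p up to 0.152. The share of Hamp2 in the counts of both genes, a quantity chosen after the values were seen, does not depend on scaling between libraries. It was 5.14, 11.9, 13.1 and 7.47% in knockout libraries 1 to 4, against 4.55, 1.71, 2.44 and 2.06% in control libraries 1 to 4. All knockout shares lay above all control shares, narrowly so for knockout 1 and control 1. This is a description with no test.

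The 2 promoters, shown because they let a reader see how the neighbouring genes differ, are near copies that differ in the box GGCGCC, the core of the BMP-response element through which iron loading raises Hamp. The RefSeq sequences (GRCm38.p6, minus strand) cover chr7:30944030-30944169 for Hamp and chr7:30924182-30924321 for Hamp2, end at the base before the start site, and have the box in capitals.
Hamp: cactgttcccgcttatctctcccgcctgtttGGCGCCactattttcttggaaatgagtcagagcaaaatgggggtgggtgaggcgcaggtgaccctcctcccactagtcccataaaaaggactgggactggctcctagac
Hamp2: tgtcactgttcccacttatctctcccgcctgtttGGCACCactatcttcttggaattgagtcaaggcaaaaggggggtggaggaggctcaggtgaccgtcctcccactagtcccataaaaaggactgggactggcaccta
Counted from the first base of the box, the only substitution within it from Hamp to Hamp2 is G4A. The 2 stretches are 87.4% identical when aligned, with 12 mismatches and 6 gaps, so they also differ outside the box. GGCGCC reads the same on both strands and occurs in the 250 bases before the start site of 9.6% of 32851 RefSeq promoters. A match is a description of letters and says nothing on binding in these livers.

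The sensors upstream of hepcidin did not pass. Tfr2 and Hfe encode membrane proteins that sense iron-loaded transferrin. Tfr2 had 566.4, 516.3, 533 and 586 CPM in knockout libraries 1 to 4, against 597.2, 579.3, 585.3 and 728 CPM in control libraries 1 to 4. Control 4 was the highest library, and the groups overlapped by knockout 4 alone (log2 fold change −0.18, SE 0.09, adjusted p = 0.296). Hfe averaged 44.5 ± 2.44 CPM in knockout and 43.4 ± 2.99 CPM in control livers (SD, n = 4 each, edgeR adjusted p = 0.802). Of 16 other tested genes of BMP, SMAD and hepcidin control, 0 passed in either direction, with a median log2 fold change of −0.07.

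None of the 3 iron uptake genes passed, and their median log2 fold change was 0.38. Tfrc encodes the transferrin receptor that takes up iron-loaded transferrin. It had 60.5, 71.4, 52.6 and 46.7 CPM in knockout libraries 1 to 4, against 38.7, 51.4, 13.7 and 18.4 CPM in control libraries 1 to 4. Controls 3 and 4 were well under the other 6 libraries, and control 2 lay within the knockout range. The estimated log2 fold change came to 0.92 (SE 0.41, adjusted p = 0.25, and 0.0877 when blocked by replicate number). Summed CPM of the erythroid markers, cells rich in this receptor, was 80.6 to 122 in knockout and 100 to 136 in control libraries. Of the 4 tested erythroid markers 1, Klf1, was lower in the knockout (adjusted p = 0.0176), and with the replicate block Slc4a1 was also called, higher (adjusted p = 0.0275). The part of such cells in the Tfrc values was not tested.

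Trf had 22890.5, 16742, 17793.6 and 27892 CPM in knockout libraries 1 to 4, against 15179.8, 14312.4, 16305.9 and 19774.9 CPM in control libraries 1 to 4. Library 4 was the highest of each group, and the groups overlapped (log2 fold change 0.38, SE 0.17, adjusted p = 0.244). Slc11a2, which encodes the iron importer of endosomes, had 67.8, 58.1, 58.2 and 66.1 CPM in knockout libraries 1 to 4, against 58.8, 64.2, 62.7 and 49.3 CPM in control libraries 1 to 4, and the ranges overlapped (log2 fold change 0.09, SE 0.10, adjusted p = 0.625).

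**Figure D4:**
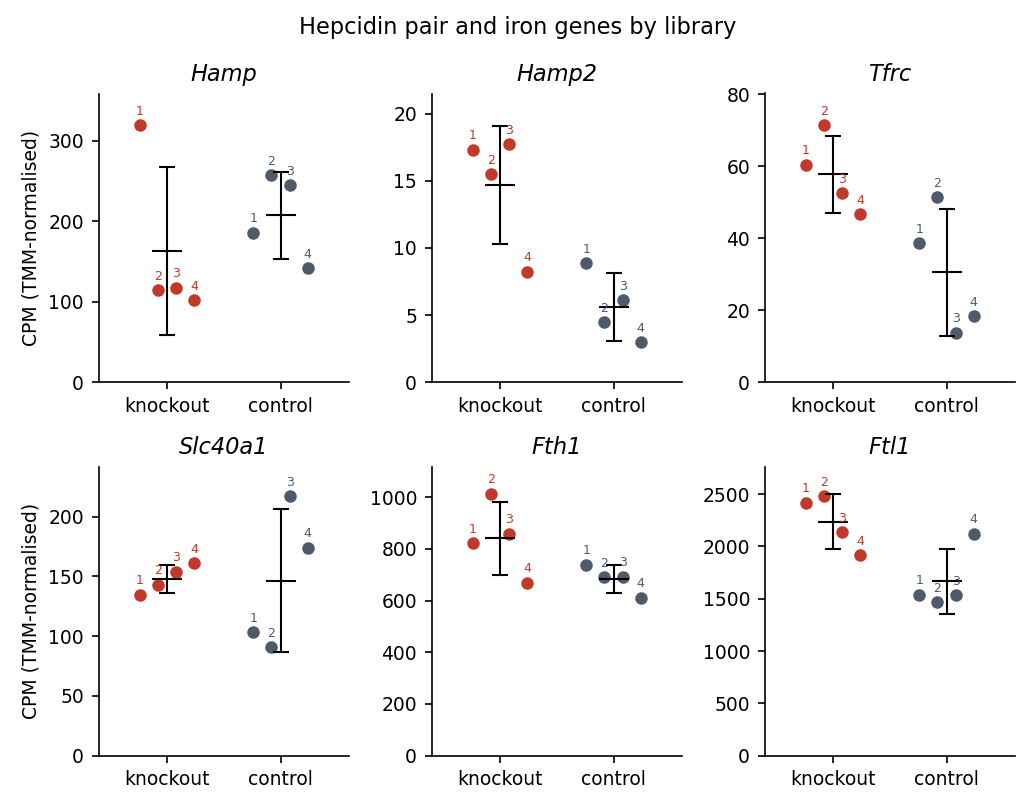
TMM-normalised CPM per library for the hepcidin pair, the transferrin receptor gene Tfrc, the ferroportin gene Slc40a1 and the ferritin genes, knockout libraries on the left and control libraries on the right, with mean and SD bars (n = 4). Hamp2 is higher in each knockout library than in the control library of the same number, Hamp is dominated by knockout 1, and Tfrc is lowest in controls 3 and 4.

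Ferritin, ferroportin and the transferrin receptor are the classical mRNAs with iron-responsive elements. A search of 1 coding transcript per gene (GENCODE M21, GRCm38) for the loop CAGUGN, preceded by a bulged C and flanked by 5 base pairs, found 7 such hairpins in 4 of the 47 genes. They are shown because the position of the hairpin sets how the mRNA is known to respond to iron, with the loop in capitals, 5′ to 3′. Those in 5′ untranslated regions lie at chr19:9982734-9982759 (plus strand) for Fth1, chr7:45459780-45459805 (minus strand) for Ftl1 and chr1:45925466-45925491 (minus strand) for Slc40a1.
Fth1: ccugcuucaaCAGUGCuugaacggaa
Ftl1: cuugcuucaaCAGUGUuugaacggaa
Slc40a1: acuucagcuaCAGUGUuagcuaaguu
The Tfrc 3′ untranslated region held 4, the first and last at chr16:32631221-32631246 and chr16:32631712-32631737 (plus strand).
Tfrc first: uuaucggaagCAGUGCcuuccauaau
Tfrc last: uuaucgggaaCAGUGUuucccauaau
The pattern occurred in 0.12% of the 5′ regions of 13251 tested genes and in 0.62% of the 3′ regions of 13591, and of those 3′ regions only that of Tfrc held more than 1. Other transcripts of a gene and hairpins with an imperfect stem were not searched. A gene without a match may therefore still hold such an element.

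The ferritin genes were higher on average in the knockout without passing. Ftl1, the light chain gene, had 2418.2, 2478.9, 2134.7 and 1916.2 CPM in knockout libraries 1 to 4, against 1539.5, 1464.9, 1534.2 and 2121.6 CPM in control libraries 1 to 4. Controls 1 to 3 were under every knockout, and control 4 was within the knockout range. The difference did not pass (log2 fold change 0.43, SE 0.14, adjusted p = 0.105), but did without control replicate 4 (adjusted p = 0.0278). It did not pass without any other single library (adjusted p up to 0.229). Fth1, the heavy chain gene with the ferroxidase site, had 821.7, 1013.6, 858.7 and 668.9 CPM in knockout libraries 1 to 4, against 738.6, 689.7, 691.6 and 611.2 CPM in control libraries 1 to 4. Knockouts 1 to 3 were above every control and knockout 4 was not (log2 fold change 0.30, SE 0.12, adjusted p = 0.188). The iron-responsive elements act mainly on ferritin translation, which these data do not measure.

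Slc40a1, the ferroportin gene, had 134.6, 142.8, 153.9 and 160.9 CPM in knockout libraries 1 to 4, against 103.4, 90.5, 217 and 173.8 CPM in control libraries 1 to 4. All knockouts lay above controls 1 and 2 and below controls 3 and 4, the reverse of the Tfrc order in the controls. The means differed by far less than the spread (log2 fold change 0.02, SE 0.26, adjusted p = 0.975). Kupffer cells, the liver macrophages that recycle iron through ferroportin, had marker sums of 90.7 to 252 CPM in knockout and 113 to 158 CPM in control libraries, with 0 of 6 markers called. Cp, the plasma ferroxidase ceruloplasmin, had 1676.4, 1438.7, 1425.4 and 2255.5 CPM in knockout libraries 1 to 4, against 1421.7, 1560.1, 1527.2 and 1761.5 CPM in control libraries 1 to 4. Library 4 was again the highest in each group (log2 fold change 0.12, SE 0.15, adjusted p = 0.694).

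**Figure D5:**
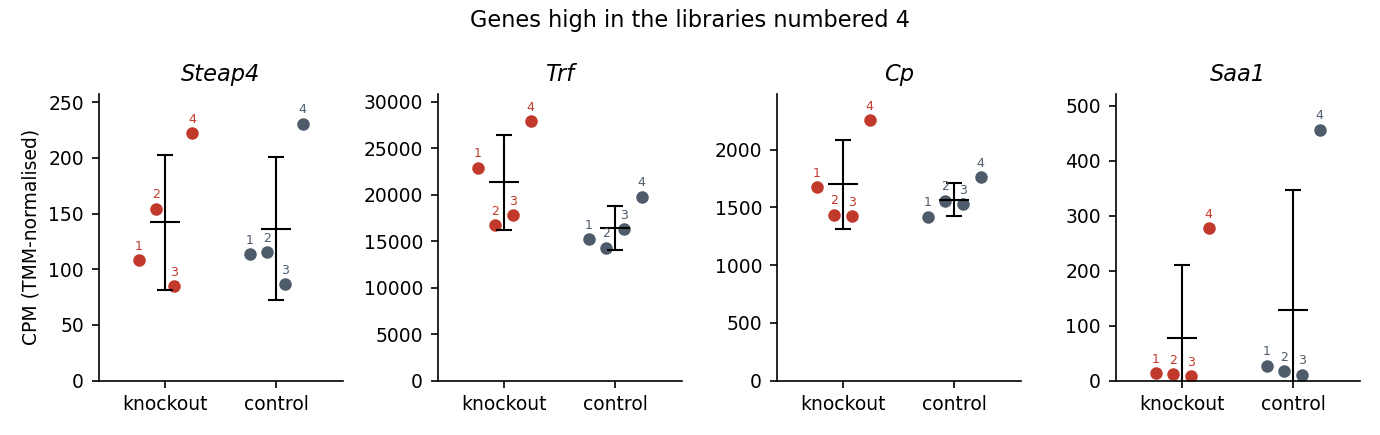
TMM-normalised CPM per library for Steap4, Trf, Cp and the acute phase gene Saa1, genes chosen after their values were seen, knockout libraries on the left and control libraries on the right, with mean and SD bars (n = 4). Library 4 is the highest of its group in all 4 panels, with Saa1 at 277.7 CPM in knockout 4 and 456.6 CPM in control 4.

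Steap4, Trf and Cp were highest in the libraries numbered 4, and so was the acute phase gene Saa1. Saa1 had 14.1, 11.6, 7.79 and 277.7 CPM in knockout libraries 1 to 4, against 27, 17.2, 10.5 and 456.6 CPM in control libraries 1 to 4. The high library was number 4 in both groups, and 0 of 8 acute phase genes were called between the groups. With the replicate block 3 of the 8 were called, where 4.39% of all tested genes were higher and 2.52% lower in that fit. Saa1 (log2 fold change −0.67, adjusted p = 0.00868) and Saa3 (−0.65, adjusted p = 0.0194) were lower in the knockout, and Orm2 was higher (1.51, adjusted p = 0.00942). The part of this in the values of Steap4, Trf and Cp was not tested. Without both libraries numbered 4, an alternative chosen after seeing the data, 3 of the tested metal-handling genes were higher (Slc30a9, Hamp2 and Ftl1) and 1 was lower (Steap2). The adjusted p-values were then 0.0263 for Hamp2 and 0.0157 for Ftl1.

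Neither gene of the iron regulatory proteins passed. Aco1, which encodes IRP1, had 369.9, 376.6, 372.3 and 327.1 CPM in knockout libraries 1 to 4, against 376.5, 398.8, 405.9 and 379.5 CPM in control libraries 1 to 4. Knockout 4 was the lowest library, and knockout 2 reached just above control 1 (log2 fold change −0.11, SE 0.07, adjusted p = 0.401). Ireb2, which encodes IRP2, had 138.6, 136.8, 133.7 and 151.3 CPM in knockout libraries 1 to 4, against 119.8, 105, 160.1 and 135.4 CPM in control libraries 1 to 4, and the knockouts lay within the control range (log2 fold change 0.11, SE 0.12, adjusted p = 0.641). Of 26 other tested genes of iron and haem use, 0 were higher and 1 was lower, where 3.51% of all tested genes were higher and 1.88% lower. With the replicate block Hif1a, which encodes a hypoxia-responsive transcription factor, was also called, higher (log2 fold change 0.26, adjusted p = 0.0475, against 0.0614 without it). The lower gene was Pcbp2, an RNA-binding protein that also delivers iron within cells, with 75.4, 86.2, 82.9 and 78.8 CPM in knockout libraries 1 to 4, against 100.9, 98.9, 99.9 and 96.5 CPM in control libraries 1 to 4. The groups did not overlap (log2 fold change −0.29, SE 0.06, adjusted p = 0.0286), and the call was lost without control 1 or 2 or knockout 1, 3 or 4 (adjusted p up to 0.101) and without both libraries numbered 4.

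Copper carriers did not pass, though 1 was slightly lower in every knockout library. Slc31a1, the high-affinity copper importer gene, had 210.4, 208.1, 199.1 and 209.8 CPM in knockout libraries 1 to 4, against 216.1, 225.3, 233.2 and 221.4 CPM in control libraries 1 to 4. The groups did not overlap, with a log2 fold change of −0.11 (SE 0.06, adjusted p = 0.29, or 0.0427 under total counts alone). Atp7b, the copper pump that loads ceruloplasmin and sends copper to bile, had 43.7, 38.8, 48.6 and 44.4 CPM in knockout libraries 1 to 4, against 51, 49.4, 66.2 and 43.4 CPM in control libraries 1 to 4. Control 3 was the highest library and knockout 2 the lowest (log2 fold change −0.26, SE 0.13, adjusted p = 0.269). Atp7a, the related pump of other tissues, had 9.47, 10.6, 10.2 and 10.8 CPM in knockout libraries 1 to 4, against 9.15, 13.7, 10.5 and 9.03 CPM in control libraries 1 to 4, and the knockouts lay within the control range (log2 fold change −0.05, SE 0.13, adjusted p = 0.863).

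Of 11 tested copper chaperones and cuproenzymes, 1 was higher and 0 were lower, where 3.51% of all tested genes were higher and 1.88% lower. Cox17, which carries copper to cytochrome c oxidase in mitochondria, had 13.1, 14.4, 13.6 and 13.6 CPM in knockout libraries 1 to 4, against 10.3, 10, 7.15 and 9.16 CPM in control libraries 1 to 4. The groups were apart (log2 fold change 0.58, SE 0.11, adjusted p = 0.0235), and the call was lost without knockout 1, 2 or 3 (adjusted p up to 0.0683) and without both libraries numbered 4. Of 7 tested partners of zinc, 0 passed in either direction.

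ZFP36L1 binds the motif UAUUUAU, and its occurrence in the metal-handling transcripts was near that in other genes. The motif was in the 3′ untranslated region of 11 of the 44 tested genes (25%), and of 28% of all 13591 tested genes with such a region. Slc30a9 held 1 motif in 3867 bases, where 59.8% of genes of like length hold any, and Steap2 held 1 in 8580 bases, where 82.8% do. Slc30a3 held none in 664 bases and Hamp2 none in 136 bases, while Hamp held 1 in 109 bases, where 4.2% of genes of like length hold any. The sites of these genes, with the motif in capitals, are shown because the targeted protein recognises these letters. They lie at chr5:67355307-67355329 (plus strand) for Slc30a9, chr5:5670333-5670355 (minus strand) for Steap2 and chr7:30942411-30942433 (minus strand) for Hamp.
Slc30a9: acuagaaaUAUUUAUaacuuuac
Steap2: auuuugauUAUUUAUcagagcua
Hamp: aaccccauUAUUUAUuccugccc
The Tfrc 3′ untranslated region held 2 motifs in 2458 bases, where 45.4% of genes of like length hold any. That of Slc30a10 held 2 in 4207 bases, where 59.7% do. Slc39a9, with a log2 fold change of −0.02, also held 2, in 3632 bases, where 58.5% do. A motif was present in a gene that was higher and in one that was lower, and its presence does not show binding in these livers.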

How the data were processed

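The authors deposited raw counts per gene symbol for 8 liver libraries, with other columns limited to a gene length in bases, per the file headers. Each column name is a library code found in 1 sample description. The build is mm10 per the submitters' processing notes. The aligner, counter, annotation and strand setting were not given in the sources used here. Of the 47 genes, 15 overlap another gene of the table, 8 of them in exons and 14 on the opposite strand. Where exons overlap, whether reads of the partner were counted cannot be told, since the strand setting is not given. In each library 67.4% to 70.8% of counts from 1 to 20 were even, so halved counts were fitted as an alternative.

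Counts were filtered with filterByExpr, TMM-normalised and tested with edgeR 4.0.16 (glmQLFit, robust, and glmQLFTest, 6 residual degrees of freedom) in R 4.3.3, with Benjamini-Hochberg adjustment over 14861 genes and a threshold of 0.05. The SE of a log2 fold change was derived from its F statistic. Alternatives used limma 3.58.1 and DESeq2 1.42.0. TPM used the deposited lengths and were not TMM-normalised. Sequences came from GENCODE M21 and RefSeq tables with Biopython 1.88, with all 47 genes matched to a coding transcript (APPRIS principal where tagged, then the longest). Like length means 0.8 to 1.25 times the length. The fit was tested on simulated data.

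Same-numbered libraries of the 2 groups correlated at 0.18 to 0.44 over genes once group means were removed, and each of the 4 numbers matched its own number best in both groups. The labels do not say what a number marks. Since every pair passed 0.1, the replicate number was treated as a pairing seen in the data, and blocked values are given where they change a call. Genes given library by library are those past the threshold and a fixed list of core genes. Slc39a1, Slc39a5, Saa1, and genes of the lists called with the replicate block alone were added after their values were seen. The members, lists and alternatives were chosen with earlier results of these data known. The SDs are taken between libraries, and the SEs come from the fit, so both reflect the scatter among libraries. The floors in CPM follow from library size alone and do not include that scatter.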

Additional observations from a re-analysis of the deposited data

Results flagged for a closer look

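Among 88 groups of 4 libraries examined, 8 had 1 library far from the other 3 relative to the range of the group, where chance flags about 1 in 20. For the hepcidin gene Hamp it was knockout 1 at 319 CPM. For Aco1 it was knockout 4 at 327 CPM. For Steap2 it was control 3 at 20.3 CPM, away from the knockout values. For Ftl1 it was control 4 at 2121.6 CPM, inside the knockout range. For Tfr2 it was control 4 at 728 CPM, and for Slc39a11 control 4 at 47.1 CPM. For Slc39a5 it was control 3 at 3.08 CPM. For Slc30a6 it was control 2 at 10.4 CPM, a gap that is small in size because the other 3 controls lay at 9.92 to 9.93 CPM.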

How the results depend on the processing

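Steap2, Slc30a9 and Zfp36l1 kept direction and call in all 17 alternative settings. Over all genes the main count was 801, with 1730 under total counts alone, 1738 with the DESeq2 Wald test, 1450 with limma voom and quality weights, 443 without both libraries numbered 4 (added after seeing the data), and 211 (knockout 3) to 967 (control 3) when 1 library was left out, moving by over 1.5 times without control 1 or 2 or knockout 1, 2 or 3. The metal-handling genes called higher, 1 in the main test, were 5 with DESeq2, 3 with voom, 2 with at least 1 CPM in 4 libraries, 3 with the replicate block, 3 without both libraries numbered 4, and 1 to 3 when 1 library was left out. Those called lower, 2 in the main test, were 5 under total counts alone, 1 with the stricter filter, which dropped Slc30a3, 1 without both libraries numbered 4, and 1 to 2 when 1 library was left out. Over all genes, calls higher numbered 521 in the main test, 1014 with DESeq2, 832 with voom and 653 with the replicate block. Calls lower numbered 280 in the main test and 1338 under total counts alone. The other pathway genes called, 2 in the main test, were 5 under total counts alone, 0 without both libraries numbered 4, and 0 to 2 when 1 library was left out. Over single genes and settings, 709 of 794 values kept direction and call, 18 gained a call, 15 lost one, and 52 with no call in either fit changed sign. The cause of these differences was not tested, beyond the smaller number of libraries in the fits that leave some out. With DESeq2, Hamp2, Slc30a10, Ftl1 and Slc39a5 joined Slc30a9. The replicate block changed no call among the metal-handling genes besides Hamp2 and Slc30a10. In the other lists it added Hif1a, Ttr, Slc4a1, Saa1, Saa3, Orm2 and the endothelial marker Lyve1 (higher, adjusted p = 0.0231). Slc30a3 and Steap1 rest on few counts, so changes in such genes are limited by depth.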

Other observations

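Alas1, the rate-limiting enzyme of haem synthesis in the liver, was named after its values were seen. It had 143.1, 1319.5, 196.4 and 343.1 CPM in knockout libraries 1 to 4, against 74.5, 214.9, 45.3 and 274.9 CPM in control libraries 1 to 4. Knockout 2 stood far above the other 7 libraries, and libraries 2 and 4 were the higher ones in both groups. The groups overlapped (log2 fold change 1.72, edgeR's quasi-likelihood test, adjusted p = 0.314). Knockout 2 also held the highest Mt1, Mt2, Slc39a5, Slc39a6, Slc39a14 and Slc30a9 values of the 8 libraries, and the highest Fth1, Ftl1 and Tfrc values. It held the lowest Slc30a1, Slc39a1, Slc39a4, Steap2, Steap3, Tfr2 and Atp7b values.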
